A study of Mus musculus with 4 samples.

Results

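The TGF-beta genes described here are 9 of the 40092 genes counted in the series, chosen by symbol. They are the ligands Tgfb1, Tgfb2 and Tgfb3, the receptors Tgfbr1 and Tgfbr2, the signal carriers Smad2 and Smad3, the inhibitory Smad7, and Itgb6, the beta chain of an epithelial integrin that activates TGF-beta. All 9 were detected in all 4 libraries, and all 9 were among the 16661 genes that passed the filter on low counts. No difference between genotypes in the 9 genes passed the test against the spread between libraries. The clearest feature was a low level of Tgfb2 and Itgb6 in 1 control library. Both knockout libraries had lower Tgfb1 values and slightly higher Smad7 values than both control libraries. Such orders were common, with both knockout libraries lower in 23.5% of all genes tested and higher in 20.3%.

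TGF-beta ligands are secreted as latent complexes, in which the mature growth factor is held by its own cleaved latency peptide, and latent TGF-beta binding proteins tether the complex to the matrix. Integrins that contain the alpha-v chain, among them the epithelial alpha-v beta-6, bind an Arg-Gly-Asp tripeptide in the latency peptide and pull the growth factor free. The freed ligand assembles TGFBR2 with TGFBR1, which phosphorylates SMAD2 and SMAD3. These enter the nucleus with SMAD4, and SMAD7, itself a target of the pathway, blocks the receptor. In the lung the pathway is known for its part in fibrosis and for its activity in AT2 cells that leave their own state for the AT1 state.

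The cells were alveolar type II (AT2) cells, which make surfactant and renew the alveolar lining, sorted by GFP fluorescence from mouse lung on day 14 after bleomycin, a drug that injures the lung. The 2 Ctrl libraries carried the genotype Alkbh5flox/+; Sftpc-CreERT2; Rosa26-mTmG and the 2 A5-CKO libraries carried Alkbh5flox/flox; Sftpc-CreERT2; Rosa26-mTmG. Alkbh5 encodes an RNA demethylase that removes m6A. All mice had tamoxifen, which frees the Cre recombinase, and bleomycin, so the Ctrl cells too lost their floxed allele wherever Cre acted, and no uninjured or Cre-negative cells were analysed here. Sftpc-CreERT2 acts in cells that express surfactant protein C at the time of tamoxifen, and the reporter marks their descendants after any change of state. Controls were littermates, ages are not given in the sources used here, and it is not stated whether a library is 1 mouse or a pool. The p-values therefore measure the spread between these libraries, which may be in part technical.

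Libraries held between 18144865 and 20811757 counts, and a count of 3 in a library corresponded to 0.128 to 0.177 normalised counts (CPM, scaled to library size with TMM factors). Alkbh5 stood at 81.7 and 152 CPM among Ctrl libraries against 19.3 and 36.6 CPM among A5-CKO libraries, a log2 fold change of -2.06 ± 0.46 (SE, n = 2 per genotype) with an adjusted p of 0.528 by edgeR. Gene counts do not separate the floxed part of Alkbh5 from the rest. AT2 markers summed to 54410 and 77838 CPM in Ctrl and to 40296 and 33203 CPM in A5-CKO. All 10 macrophage markers were detected and summed to 962 and 1190 CPM in Ctrl 1 and A5-CKO 2 but to 184 and 171 CPM in Ctrl 2 and A5-CKO 1. All 9 mesenchymal markers were detected, and their sums were ordered in the same way, with 262 and 678 CPM against 121 and 80.4 CPM. The other sums ran from 2145 to 2328 CPM for AT1 markers, 1232 to 2753 for club cell, 190 to 292 for leukocyte, 95.7 to 212 for endothelial, 27.4 to 126 for mesothelial and 2.39 to 5.30 for platelet markers. Of 9 AT1 markers 7 were tested, and none had an unadjusted p under 0.05. In 4 of these 7, Hopx, Clic5, Akap5 and Cav1, both A5-CKO values were above both Ctrl values, against 20.3% of all genes. Aqp5 had both below, against 23.5% of all genes, and Rtkn2 and Emp2 overlapped. Ager was at most 0.349 CPM and Pdpn at most 0.77 CPM, and neither was tested. The platelet marker Pf4 was at 0. In bulk RNA, fewer cells of a type and less RNA per cell cannot be told apart.

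The 3 ligands differ in the part of the latency peptide that alpha-v integrins bind, so Itgb6 bears on them unequally. The coding bases around that place are shown for each mouse ligand, read 5′ to 3′ on the coding strand from GENCODE M21 (GRCm38). The capitals mark the 9 bases that encode the Arg-Gly-Asp tripeptide in Tgfb1 and Tgfb3, and the aligned 9 bases in Tgfb2, which do not encode it.
Tgfb1: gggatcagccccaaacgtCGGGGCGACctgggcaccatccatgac
Tgfb2: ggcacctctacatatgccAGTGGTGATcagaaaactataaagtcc
Tgfb3: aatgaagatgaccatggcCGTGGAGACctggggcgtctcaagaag
In each ligand the bases in capitals lie in exon 5 of 7. The capitals are at chr7:25697142-25697150 on the plus strand in Tgfb1, at chr1:186630753-186630761 on the minus strand in Tgfb2, and at chr12:86062165-86062173 on the minus strand in Tgfb3. The coding sequences are 1170, 1242 and 1236 bases long in Tgfb1, Tgfb2 and Tgfb3. Over the last 336 coding bases, which follow the last dibasic cleavage site and hold the mature growth factor, Tgfb1 and Tgfb3 were identical at 73.5% of positions, Tgfb2 and Tgfb3 at 70.8%, and Tgfb1 and Tgfb2 at 68.8%.

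No member passed the test across all genes (edgeR quasi-likelihood, Benjamini-Hochberg adjustment), where 0% of all 16661 genes passed. At an unadjusted p under 0.05 the count was 0 of 9 members, against 9.18% of all genes. The log2 fold change of A5-CKO over Ctrl was above 0 for 6 members and below 0 for 3, and 49.1% of all genes were above 0. The members' median was 0.04 and that of all genes tested was -0.02. Both A5-CKO libraries lay above both Ctrl libraries for 1 member, Smad7, where 20.3% of all genes did so. Both lay below for 1 member, Tgfb1, where 23.5% of all genes did so. Neither share was above the background. Correction for GC content and length turned 3 of the 6 positive values, Tgfbr1, Tgfbr2 and Smad2, below 0.

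**Figure D1:**
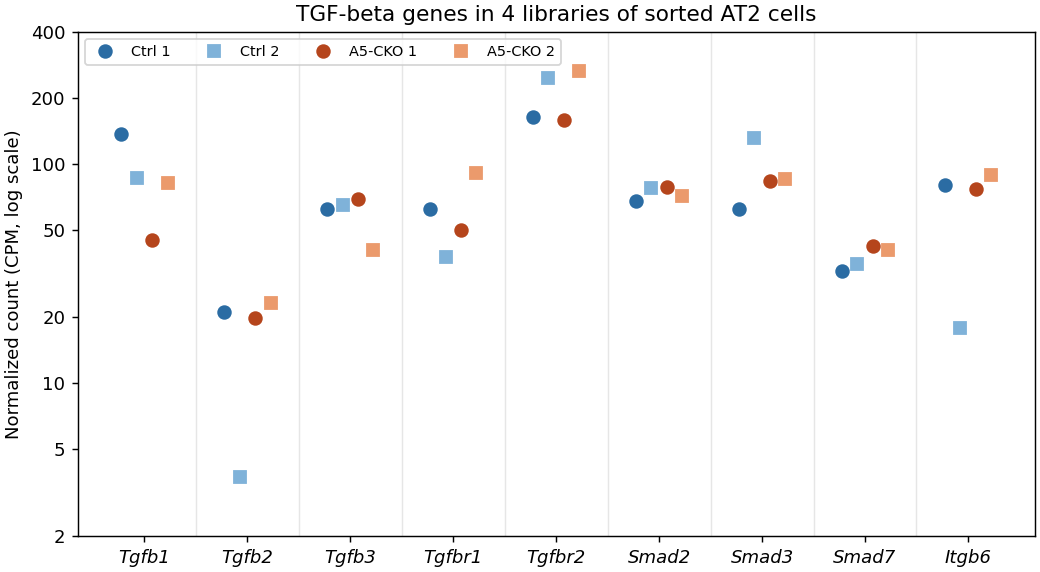
CPM of the 9 TGF-beta genes (log axis, normalised with TMM factors) in the 2 Ctrl and 2 A5-CKO libraries, 1 point per library. Tgfb2 and Itgb6 show 1 Ctrl point far below the other 3 libraries, at 3.72 and 17.8 CPM.

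Tgfb1 (chr7:25687002-25705077, GRCm38.p6) encodes the most widely expressed of the ligands. Ctrl 1 had 137 CPM and Ctrl 2 had 86.5 CPM, while A5-CKO 1 had 45.0 CPM and A5-CKO 2 had 82.2 CPM. The groups did not overlap, but the lower Ctrl value was close to the higher A5-CKO value. The means were 112 ± 35.8 and 63.6 ± 26.3 CPM (SD, n = 2 each), and the log2 fold change was -0.81 ± 0.40 (SE), with a p of 0.0834 and an adjusted p of 0.539 by edgeR. This was the smallest p among the members. Its sign was negative in all 17 alternative analyses, from -1.31 without A5-CKO 2 to -0.36 without Ctrl 1.

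Tgfb2 (chr1:186622787-186709697), a ligand with a strong part in development, stood at 20.99 CPM (Ctrl 1), 3.72 CPM (Ctrl 2), 19.8 CPM (A5-CKO 1) and 23.1 CPM (A5-CKO 2). The counts behind them were 355, 64, 437 and 541, all well above the floor of 3. Ctrl 2 stood alone below the other 3 libraries, and Ctrl 1 lay between the A5-CKO libraries. The Ctrl mean was 12.4 ± 12.2 CPM and the A5-CKO mean 21.5 ± 2.36 CPM (SD, n = 2 each), and the log2 fold change was 0.80 ± 0.73 (SE) with an adjusted p of 0.706 by edgeR. It was 0.01 without Ctrl 2 and 2.61 without Ctrl 1 (adjusted p = 0.492 by edgeR), so the difference between genotypes rested on Ctrl 2.

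Tgfb3 (chr12:86056743-86079041), the ligand best known from palate fusion, had 62.4 and 65.3 CPM among Ctrl libraries against 69.2 and 40.6 CPM among A5-CKO libraries. The A5-CKO libraries lay on either side of the Ctrl pair. The log2 fold change was -0.22 ± 0.34 (SE, n = 2 each), with an adjusted p of 0.840 by edgeR, and it turned to 0.12 without A5-CKO 2.

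Levels can be set against each other only per length, as CPM per kb of exon. On that scale Tgfb1 and Tgfb3 were alike in mean over the 4 libraries, at 17.4 and 17.5, and Tgfb2 was the lowest of the 9 members, at 2.92. Single libraries put Tgfb1 at 8.93 to 27.2 and Tgfb3 at 12.0 to 20.4. On this scale these 2 genes thus did not differ beyond their spread. The likeness depends on the divisor. The exon union was 5.04 kb for Tgfb1, whose longest transcript has 2573 bases. It was 3.38 kb for Tgfb3, whose longest transcript has 3383 bases. Divided by the longest transcript, Tgfb1 would stand higher and Tgfb3 would hardly change. The highest Tgfb2 value, 3.99, was below the lowest value of each of the other ligands. In full, the means ran from Tgfbr2 (25.6) through Tgfb3, Tgfb1 and Smad3 (16.4) to Itgb6 (9.28), Tgfbr1 (9.23), Smad2 (8.41), Smad7 (8.30) and Tgfb2. Neighbours in this order overlapped in their library values, except Tgfb2 against Smad7, whose lowest library was at 7.21.

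The share of each ligand in the summed CPM per kb of the 3 ligands does not depend on how libraries are scaled. Tgfb1 made up 55.2% and 46.2% of this sum among Ctrl libraries against 27.2% and 50.5% among A5-CKO libraries, a difference of -11.9 percentage points (exact permutation test, two-sided, p = 0.667). Tgfb2 made up 7.36% and 1.73% for Ctrl but 10.4% and 12.4% for A5-CKO. Both A5-CKO shares of Tgfb2 were above both Ctrl shares, by 6.85 percentage points between means, with an exact permutation p of 0.333, the smallest that 2 against 2 libraries allow. The Tgfb2 level itself overlapped, at 20.99 CPM in Ctrl 1 and 19.8 CPM in A5-CKO 1. Its share was larger in A5-CKO 1 because Tgfb1 was lower there, at 45.0 CPM against 137 CPM in Ctrl 1. Tgfb3 made up 37.4% and 52.0% for Ctrl, 62.3% and 37.1% for A5-CKO, a difference of 5.01 points (exact permutation p = 1). Per kb of exon, Tgfb3 was the leading ligand in Ctrl 2 and A5-CKO 1, and Tgfb1 in Ctrl 1 and A5-CKO 2. In raw counts without division by length, Tgfb1 led in Ctrl 2 too, at 55.6% against 42.0% for Tgfb3. Tgfb3 still led in A5-CKO 1 there, at 51.6% against 33.6% for Tgfb1.

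**Figure D2:**
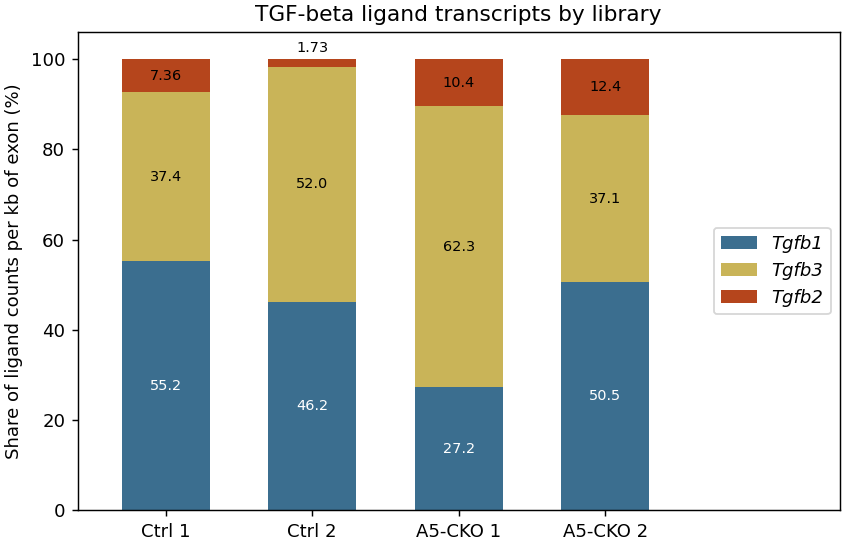
Share (%) of Tgfb1, Tgfb2 and Tgfb3 in the summed CPM per kb of exon of the 3 ligands, 1 bar per library. Tgfb2 is the smallest part of each bar, from 1.73% in Ctrl 2 to 12.4% in A5-CKO 2.

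Tgfbr1 (chr4:47353222-47414926), the receptor kinase that phosphorylates SMAD2 and SMAD3, had 62.6 and 37.7 CPM among Ctrl libraries against 50.2 and 90.8 CPM among A5-CKO libraries. The groups overlapped, with A5-CKO 1 below Ctrl 1. The log2 fold change was 0.49 ± 0.41 (SE, n = 2 each), with an adjusted p of 0.677 by edgeR, and it was -0.0047 after correction for GC content and length. It was 0.0014 without A5-CKO 2 and 0.99 without Ctrl 1. Ctrl 1 and A5-CKO 2, the libraries highest in Tgfbr1, also had the highest macrophage marker sums, 962 and 1190 CPM. Their mesenchymal marker sums were highest too, 262 and 678 CPM. The part of those cells in the Tgfbr1 values was not tested.

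Tgfbr2 (chr9:116087695-116175363), the receptor that binds ligand first, had 165 and 248 CPM among Ctrl libraries against 159 and 266 CPM among A5-CKO libraries. Each genotype held 1 high and 1 low library, and the means were 207 ± 59.1 and 212 ± 75.5 CPM (SD, n = 2 each). The log2 fold change was 0.04 ± 0.39 (SE), with an adjusted p of 0.978 by edgeR, and its sign held in 13 of the 17 alternatives. After correction for GC content and length it was -0.26. Per kb of exon Tgfbr2 had the highest mean of the 9 members, 25.6 against 9.23 for Tgfbr1. The lowest Tgfbr2 library, at 19.4 CPM per kb, was above the highest Tgfbr1 library, at 13.9. Ctrl 2 and A5-CKO 2, the high Tgfbr2 libraries, also had the highest endothelial marker sums, 212 and 209 CPM. Those sums were 134 CPM in Ctrl 1 and 95.7 CPM in A5-CKO 1. The part of endothelial cells in the Tgfbr2 values was not tested.

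Smad2 and Smad3 carry the signal from the receptor to the nucleus. Smad2 (chr18:76241090-76311748) had 67.9 and 78.0 CPM among Ctrl libraries against 78.2 and 71.3 CPM among A5-CKO libraries, and its log2 fold change was 0.04 ± 0.28 (SE, n = 2 each; adjusted p = 0.972 by edgeR). Among all genes tested the SD of its log2 CPM over the 4 libraries stood at percentile 1.46, so few genes varied less. The GC and length correction gave Smad2 a log2 fold change of -0.46. Smad3 (chr9:63646766-63757994) had 62.6 and 131 CPM among Ctrl libraries against 84.1 and 85.2 CPM among A5-CKO libraries. The A5-CKO libraries were nearly equal and lay between the Ctrl libraries, which differed 2.10-fold. Its log2 fold change was -0.20 ± 0.39 (SE), with an adjusted p of 0.877 by edgeR. Per kb of exon Smad3 had a mean of 16.4 and Smad2 of 8.41, and Smad3 was the higher in each of the 4 libraries.

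Smad7 (chr18:75367365-75395935), which blocks the receptor and is switched on by the pathway, had 32.6 and 34.9 CPM among Ctrl libraries against 42.1 and 40.5 CPM among A5-CKO libraries. The A5-CKO pair lay above the Ctrl pair, and the libraries within each genotype were close, with an SD of log2 CPM within genotypes of 0.0571 (percentile 1.72 of all genes tested). The means were 33.7 ± 1.64 and 41.3 ± 1.15 CPM (SD, n = 2 each). The log2 fold change was 0.29 ± 0.30 (SE), with a p of 0.363 and an adjusted p of 0.736 by edgeR. The SE comes from a spread that edgeR shares across genes, so it is wider than these 4 values alone would give. The sign was positive in all 17 alternatives, from 0.26 to 0.61, and the smallest adjusted p among them was 0.478.

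Itgb6 (chr2:60598292-60722603) stood at 80.5 CPM (Ctrl 1), 17.8 CPM (Ctrl 2), 76.7 CPM (A5-CKO 1) and 89.0 CPM (A5-CKO 2), from 1361, 306, 1695 and 2083 counts. As for Tgfb2, Ctrl 2 alone was low and Ctrl 1 lay between the A5-CKO libraries. The means were 49.1 ± 44.3 and 82.9 ± 8.70 CPM (SD, n = 2 each), and the log2 fold change was 0.75 ± 0.63 (SE; adjusted p = 0.678 by edgeR). It was 0.02 without Ctrl 2 and 2.30 without Ctrl 1 (adjusted p = 0.492 by edgeR).

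**Figure D3:**
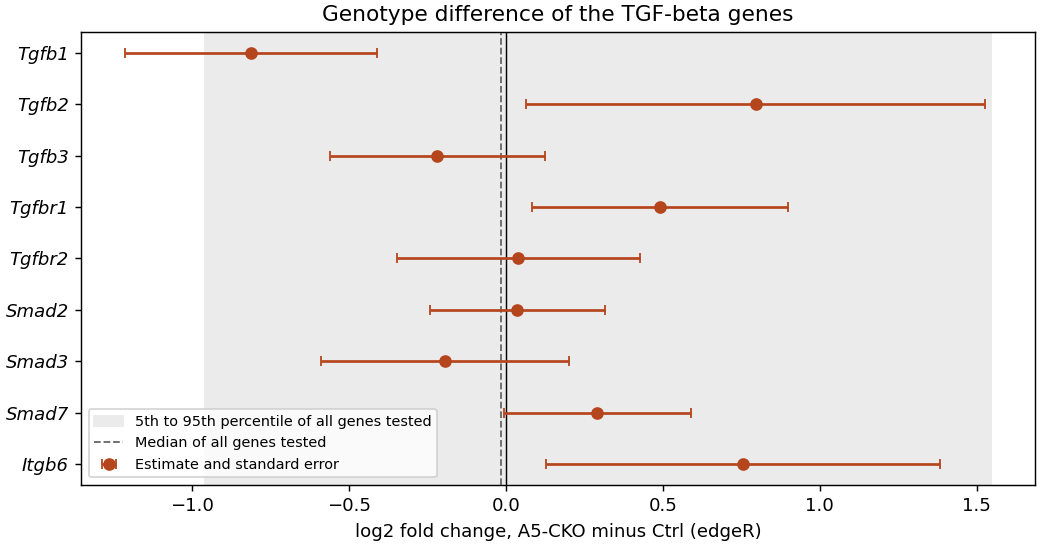
Log2 fold change of A5-CKO over Ctrl for the 9 genes from the edgeR fit, with bars for the SE, beside the spread of all genes tested. The members run from -0.81 (Tgfb1) to 0.80 (Tgfb2), and none has an adjusted p under 0.05.

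**Figure D4:**
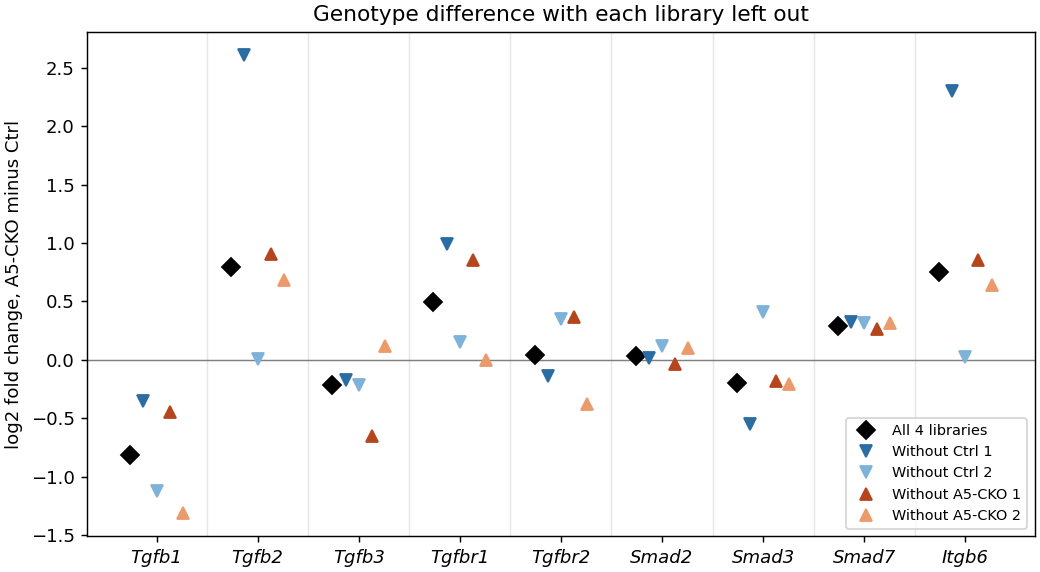
Log2 fold change of A5-CKO over Ctrl for each of the 9 genes with all 4 libraries and after dropping each library. Tgfb2 moves from 0.01 to 2.61 and Itgb6 from 0.02 to 2.30, while Smad7 stays between 0.26 and 0.32.

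The Ctrl libraries differed 5.64-fold in Tgfb2 and 4.52-fold in Itgb6, and the A5-CKO libraries 1.17-fold and 1.16-fold. These were the 2 members that differed over 4-fold between Ctrl libraries, where 6.63% of all genes did, and 0 members did so between A5-CKO libraries, where 6.05% of all genes did. The nearest patterns were sought as the smallest root mean square difference of centred log2 CPM over the 4 libraries, among 9923 genes with a mean of at least 10 CPM. For Tgfb2 they were Dock10 (0.0794), Itgb6 (0.124) and Anxa1 (0.146). For Itgb6 the closest were Dock10 (0.115) and Tgfb2 (0.124). Dock10 had 17.4 and 3.43 CPM for Ctrl and then 16.8 and 21.9 CPM for A5-CKO, and Anxa1, a lipid-binding annexin, had 558, 125, 620 and 808 CPM in the same order of libraries. All 7 transitional cell markers were detected, and their sum was also lowest in Ctrl 2, with 4757, 2131, 2889 and 4507 CPM in the same order, and the AT2 markers summed highest there. The part of these markers in the Tgfb2 and Itgb6 values was not tested. Tgfb1 came next in spread and was nearest to the peptidase gene Thop1 (0.0375), Sh3bgrl3 (0.0687) and the hyaluronidase gene Hyal2 (0.07). The Tgfb1 pattern was common. With the same cut-off on this difference for each gene, 317 of the 9923 genes lay near Tgfb1, against 5 near Tgfb2 and 13 near Itgb6.

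Tgfb2 and Itgb6 were both low in Ctrl 2 alone, and whether they share any control was not tested. The 250 bases before their starts are shown from the RefSeq promoter table (GRCm38.p6). That table held 6 of the 9 members and lacked Tgfb3, Smad2 and Smad7. Both stretches lie on the minus strand, at chr1:186705990-186706239 and chr2:60722604-60722853. The Tgfb2 window lies inside the annotated gene, which also has a start further upstream. Capitals mark matches to the motifs searched on either strand.
Tgfb2: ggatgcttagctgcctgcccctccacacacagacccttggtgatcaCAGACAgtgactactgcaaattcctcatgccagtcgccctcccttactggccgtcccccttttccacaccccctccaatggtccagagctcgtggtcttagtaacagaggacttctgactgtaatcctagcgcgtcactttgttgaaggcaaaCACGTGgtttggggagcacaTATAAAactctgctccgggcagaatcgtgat
Itgb6: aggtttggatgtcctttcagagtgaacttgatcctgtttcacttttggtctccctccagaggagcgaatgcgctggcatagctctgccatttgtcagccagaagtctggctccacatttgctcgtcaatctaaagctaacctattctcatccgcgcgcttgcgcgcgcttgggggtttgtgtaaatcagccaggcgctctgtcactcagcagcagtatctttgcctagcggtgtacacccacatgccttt
The motifs were the palindromic SMAD element GTCTAGAC, the SMAD box CAGACA, the AP-1 site TGACTCA, the GC box GGGCGG, the cAMP element TGACGTCA, the TATA box TATAAA and the E-box CACGTG. In all 32851 promoter windows of the table these were found in 0.213%, 21%, 5.2%, 35.7%, 1.79%, 13.6% and 7.15%. Those windows also cover bases after the start, so they are longer than the stretches shown. Tgfb2 held CAGACA at -204, CACGTG at -51 and TATAAA at -31 from its start, and Itgb6 held none of the motifs in this window. A match describes letters only and not a bound site.

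The rest of the pathway was read from 6 lists of 77 genes, of which 70 were tested and 0 passed the adjusted threshold. At an unadjusted p under 0.05 there were 3 higher and 1 lower in A5-CKO, against 4.48% and 4.71% of all genes. The median log2 fold change of the 70 genes was 0.28, and it ran from -0.27 without A5-CKO 2 to 0.71 without Ctrl 1.

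Among the genes of ligand storage and activation, 13 of 14 were tested, with 7 above and 6 below 0 and a median of 0.16. Without A5-CKO 2 there were 3 above and 10 below with a median of -0.36, and without Ctrl 1 there were 10 above and 3 below with a median of 0.91. Thbs1, which encodes thrombospondin-1, a matrix protein that activates latent TGF-beta, had 229 and 124 CPM among Ctrl libraries against 435 and 483 CPM among A5-CKO libraries. The groups did not overlap, with A5-CKO the higher. Its log2 fold change was 1.38 ± 0.40 (SE, n = 2 each), with a p of 0.0104 and an adjusted p of 0.528 by edgeR, and it ran from 0.98 to 1.97 with libraries left out in turn. The partner of Itgb6, Itgav, named after its values were seen, had 122 and 65.9 CPM among Ctrl libraries against 96.7 and 199 CPM among A5-CKO libraries, overlapping groups with a log2 fold change of 0.65 ± 0.46 (SE). Itgb8, the beta chain of the other main TGF-beta-activating integrin and likewise named after its values were seen, was at most 0.272 CPM and was not tested.

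All 6 co-receptor genes were tested, with 2 above and 4 below 0 and a median of -0.49. The median was 0.14 without Ctrl 2, with 3 above and 3 below, and -0.97 without A5-CKO 2. None had an unadjusted p under 0.05. Tgfbrap1, whose product associates with the receptors, had 59.3 and 148 CPM among Ctrl libraries against 67.6 and 82.8 CPM among A5-CKO libraries. Vasn, a cell-surface protein that binds TGF-beta, had 44.2 and 96.2 CPM among Ctrl libraries against 37.1 and 45.6 CPM among A5-CKO libraries. In both genes Ctrl 2 was the highest library.

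All 8 SMAD partners were tested, with 7 above and 1 below 0 and a median of 0.30. Without Ctrl 1 there were 4 above and 4 below. Trim33, an E3 ligase that binds SMAD2 and SMAD3 and acts on SMAD4, had 27.5 and 29.6 CPM among Ctrl libraries against 62.2 and 45.2 CPM among A5-CKO libraries. Its log2 fold change was 0.91 ± 0.32 (SE), with a p of 0.0254 and an adjusted p of 0.528 by edgeR. It was 0.89 with the replicate block, 0.33 with the GC and length correction and 0.32 with both. In the 13 alternatives on all libraries the unadjusted p of Trim33 was under 0.05 in 10.

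All 14 negative regulators were tested, with 8 above and 6 below 0 and a median of 0.06. Without A5-CKO 2 there were 5 above and 9 below with a median of -0.16. Skil, which encodes SnoN, a repressor of SMAD target genes, had 52.7 and 38.0 CPM among Ctrl libraries against 94.2 and 75.8 CPM among A5-CKO libraries, a log2 fold change of 0.91 ± 0.31 (SE) with a p of 0.0242 and an adjusted p of 0.528 by edgeR, which was 0.32 after the GC and length correction. Bambi, a decoy receptor without a kinase, had 36.5 and 66.4 CPM among Ctrl libraries against 31.8 and 19.5 CPM among A5-CKO libraries, a log2 fold change of -1.004 ± 0.42 (SE) with a p of 0.0499 and an adjusted p of 0.528 by edgeR. In both genes the groups did not overlap. With libraries left out in turn, Skil ran from 0.66 to 1.24 and Bambi from -0.54 without Ctrl 2 to -1.40 without A5-CKO 1, and in the 13 alternatives on all libraries the unadjusted p was under 0.05 in 11 for Skil and in 6 for Bambi.

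Of 23 genes that TGF-beta is known to act on, 21 were tested, with 16 above and 5 below 0 and a median of 0.41. None had an unadjusted p under 0.05. The direction rested on single libraries: without A5-CKO 2 the count was 5 above and 16 below 0 with a median of -0.79, and without Ctrl 1 it was 17 above and 4 below with a median of 1.63. The targets with the highest mean CPM, which is not corrected for length, were Col4a1 (a basement membrane collagen, 965 and 910 CPM in Ctrl, 544 and 827 CPM in A5-CKO) and Junb (an AP-1 factor, 700 and 926 against 832 and 550 CPM), with log2 fold changes of -0.45 and -0.23.

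Named after their values were seen, Fn1, which encodes fibronectin, had 916 and 76.2 CPM for Ctrl and then 74.8 and 1170 CPM for A5-CKO, and Ccn2, a matrix signalling protein, in the same order had 213, 19.8, 48.8 and 233 CPM. Tgfbi, named for its induction by TGF-beta, had 176, 91.9, 49.5 and 278 CPM. Fn1, Ccn2 and Tgfbi were all high in Ctrl 1 and A5-CKO 2, the libraries in which the macrophage, mesenchymal, transitional and mesothelial markers summed highest. The part of those cells in the target genes was not tested. Other targets were ordered differently. Of the 21 tested, 2, Cdkn1a and Klf10, had both A5-CKO libraries above both Ctrl libraries, against 20.3% of all genes. For 1, Col4a1, both were below, against 23.5% of all genes, and Junb was lowest in A5-CKO 2. In Tgfb2 and Itgb6, A5-CKO 1 was close to A5-CKO 2, and Ctrl 2 alone was low. The part of those cells in Tgfb2 and Itgb6 was not tested either.

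In the activin branch, which shares SMAD2 and SMAD3, 8 of 12 genes were tested, with 6 above and 2 below 0 and a median of 0.58. Without A5-CKO 2 there were 3 above and 5 below with a median of -0.13, and without Ctrl 1 the median was 1.11. Acvr1b, the type I activin receptor, had 59.1 and 94.5 CPM among Ctrl libraries against 68.4 and 81.7 CPM among A5-CKO libraries. Inhbb, an activin and inhibin subunit, had 42.5 and 38.1 CPM among Ctrl libraries against 37.2 and 36.7 CPM among A5-CKO libraries, and its log2 fold change was -0.12. Mstn was at 0 in all 4 libraries.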

How the data were processed

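The authors deposited 1 table of raw read counts per gene for the 4 libraries, named there WT and KO. Total RNA was extracted with Trizol and libraries were made with a SMARTER mRNA kit. Per the labels and the paper's methods, reads were trimmed (Trim Galore 0.6.10), cleared of ribosomal RNA, aligned to mm10 (HISAT2 2.2.1), freed of duplicates with sambamba and counted with featureCounts 2.0.3 against an NCBI gene annotation. That counting is described under MeRIP-seq, and the strand setting is not given in the sources used here, so reads of overlapping genes on the other strand could be included. Overlapping genes of the members held at most 27 counts in a library.

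The Ctrl totals were 18144865 and 20003789 counts, the A5-CKO totals 19987476 and 20811757, and floors cover counting error only. Genes passing filterByExpr (16661) were fitted with edgeR 4.0.16 (TMM factors, quasi-likelihood, genotype as the sole term) in R 4.3.3, with Benjamini-Hochberg adjustment over all of them. Test scripts were tested on simulated counts. CPM per kb used exon union lengths of GENCODE M21. Alternatives were other scalings, other filters, DESeq2 1.42.0, limma-voom 3.58.1, GC and length offsets, a replicate block and leaving out each library. With 2 against 2 libraries an exact permutation test cannot go below 0.333.

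The members and lists were chosen with earlier results of these data known. Named genes are the members, list genes with an unadjusted p under 0.05 (at most 5 per list), the 2 genes of highest mean CPM in a list with none, and the 3 genes nearest in pattern to each of the 3 most variable members. For Itgb6, 1 of these 3 is not reported here. Marker lists are given as summed CPM.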

Additional observations from a re-analysis of the deposited data

How the results depend on the processing

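The count of 0 members at an adjusted p under 0.05 held in all 17 alternatives, including DESeq2 and limma-voom, and the count of 0 at an unadjusted p under 0.05 held in the 13 alternatives planned on all 4 libraries. Leaving out each library gave log2 fold changes of 0.01 to 2.61 for Tgfb2 and 0.02 to 2.30 for Itgb6. Same-numbered libraries did not deviate together (correlation -0.35) and no label ties the numbers to a litter or day, so the numbers were not taken as pairs. With the replicate block as a term in edgeR the members' median log2 fold change was 0.04, 0 members passed, that of the pathway genes was 0.23, Alkbh5 was at -2.07, and 754 genes in all had an unadjusted p under 0.05 against 1530 without the block. A crossed replicate block, chosen after seeing the data, gave 3 of 9 members and 2582 of 16661 genes at an unadjusted p under 0.05. At an adjusted p under 0.05 it gave 0 members and 230 genes in all.

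The members' median of 0.04 is close to 0 and moved to 0.0928 (DESeq2 size factors, and DESeq2 on the same genes), 0.15 (upper quartile), 0.37 (total counts), 0.0770 (DESeq2 with its own filter), 0.0121 (no filter), 0.0852 (a minimum of 10 counts), -0.11 (GC and length) and -0.13 (the block with GC and length). With libraries left out in turn it ran from 0.0187 to 0.26, and the median of the pathway genes from -0.27 to 0.71. Scaling by total counts moved the median of all genes to 0.30 and turned Tgfb3 to 0.10 and Smad3 to 0.14. The GC and length offsets turned Tgfbr1 to -0.0047, Tgfbr2 to -0.26 and Smad2 to -0.46, and with the block to -0.0627, -0.29 and -0.46. With libraries left out in turn, Tgfb3 ran from -0.65 to 0.12, Tgfbr1 from 0.0014 to 0.99, Tgfbr2 from -0.38 to 0.36, Smad2 from -0.0334 to 0.11 and Smad3 from -0.55 to 0.41. The causes were not tested. Ligand share differences ran from -23.5 to -0.226 points for Tgfb1, 4.03 to 9.66 for Tgfb2 and -7.60 to 17.6 for Tgfb3.

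Alkbh5 passed by DESeq2, with -2.01 (adjusted p = 0.0248) on the same genes and -2.02 (adjusted p = 0.0224) with its own filter, and ran from -2.60 to -1.56 with libraries left out. DESeq2 called 55 and 59 genes in all in these fits, where edgeR called 0. With 2 libraries per genotype and a biological coefficient of variation of 41.6%, differences of the size seen for Smad7 and Tgfb1 did not pass a test that shares its estimate of spread across genes, although the Smad7 values were close within each genotype.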

Other observations

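The SMADs of the neighbouring BMP branch, which are not among the genes above and were looked at after their values were seen, gave no call by edgeR. Smad1 had 34.1 and 41.6 CPM among Ctrl libraries against 31.6 and 29.0 CPM among A5-CKO libraries (log2 fold change -0.32, adjusted p = 0.724 by edgeR), with both A5-CKO libraries lower. Smad5 had 53.5 and 78.3 CPM among Ctrl libraries against 87.0 and 69.7 CPM among A5-CKO libraries (0.25, adjusted p = 0.799 by edgeR), with overlapping groups. Smad9 was low, at 1.12 and 2.44 CPM among Ctrl libraries against 5.66 and 1.37 CPM among A5-CKO libraries. Tgfbr3l, a gene related to the co-receptor Tgfbr3, had 0.71 and 2.85 CPM among Ctrl libraries against 10.1 and 1.41 CPM among A5-CKO libraries, and A5-CKO 1 alone was high.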
